A study of Mus musculus with 12 samples.

Results

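Serpins are protein inhibitors of proteases, and 8 mouse serpin genes were followed in cultured CD8+ T cells: Serpinb9, Serpinb9b, Serpinb6a, Serpinb6b, Serpinb1a, Serpine2, Serpina3f and Serpina3g. They were chosen by symbol, after Serpinb9 and Serpine2 had been seen to differ in a knockdown comparison of the same data, and all 8 were found among the 68 serpin genes and 55487 gene identifiers of each count table. OT-1 mice carry a transgenic T cell receptor for an ovalbumin peptide, and all 12 samples were OT-1 CD8+ T cells cultured with recombinant IL2. The Female and Male groups (3 samples each) were spleen cells of either sex, stimulated for 3 days with beads against CD3 and CD28. A separate batch of male cells was electroporated and cultured for 3 days. In that batch the KD group (3 samples) received Cas9 with a guide RNA against the Y-linked gene Kdm5d, and the WT group (3 samples) received guide RNA alone. Mouse age, the number of mice and whether cells were pooled were not given in the sources used here, so p-values measure the spread between samples, which may be technical.

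A serpin inhibits by bait: the target protease cuts an exposed loop near the carboxyl end of the serpin, the serpin changes shape, and both proteins are left locked together and inactive. Clade B serpins, such as Serpinb9, mostly stay inside the cell. Clade A and clade E serpins are mostly secreted, although Serpina3g acts in the cytosol and nucleus. Cytotoxic T cells store granzymes, which are serine proteases, in granules with perforin, and Serpinb9 is the known inhibitor of granzyme B that protects these cells from their own granzyme leaking into the cytosol.

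Promoter sequence is shown for 4 members: Serpinb9, Serpinb6b, Serpine2 and Serpina3g. Serpina3g had the highest level per length. Serpinb9, Serpinb6b and Serpine2 differed in both comparisons, as did Serpinb6a and Serpina3f, whose promoters are not printed in full. RefSeq promoters of build GRCm38.p6 were matched for 7 of the 8 symbols (9 start sites), each running from 250 bases before to 50 bases after the start. Capitals mark matches, on either strand, to 4 motifs: the interferon-stimulated response element ISRE (GAAANNGAAA), the STAT site GAS (TTCNNNGAA), AP-1 (TGANTCA) and NF-kB. Serpinb9 lies at chr13:33004291-33004590 on the plus strand, Serpinb6b at chr13:32965011-32965310 on the plus strand, Serpina3g at chr12:104235897-104236196 on the plus strand and Serpine2 at chr1:79858616-79858915 on the minus strand.
Serpinb9: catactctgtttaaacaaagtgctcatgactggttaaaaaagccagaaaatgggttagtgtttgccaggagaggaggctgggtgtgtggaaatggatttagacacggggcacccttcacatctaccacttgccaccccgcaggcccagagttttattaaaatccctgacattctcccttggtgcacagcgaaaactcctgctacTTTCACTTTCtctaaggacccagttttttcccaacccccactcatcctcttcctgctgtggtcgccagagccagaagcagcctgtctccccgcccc
Serpinb6b: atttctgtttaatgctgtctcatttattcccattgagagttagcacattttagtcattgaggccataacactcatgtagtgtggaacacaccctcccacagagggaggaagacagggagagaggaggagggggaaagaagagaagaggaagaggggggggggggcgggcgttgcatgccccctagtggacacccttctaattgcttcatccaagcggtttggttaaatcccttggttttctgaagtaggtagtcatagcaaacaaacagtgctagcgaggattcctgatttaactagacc
Serpina3g: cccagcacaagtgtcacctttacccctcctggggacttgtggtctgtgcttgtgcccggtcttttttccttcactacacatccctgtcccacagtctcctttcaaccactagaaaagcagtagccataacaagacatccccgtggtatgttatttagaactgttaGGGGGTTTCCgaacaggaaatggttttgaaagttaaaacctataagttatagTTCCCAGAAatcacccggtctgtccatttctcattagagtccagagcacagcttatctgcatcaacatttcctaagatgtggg
Serpine2: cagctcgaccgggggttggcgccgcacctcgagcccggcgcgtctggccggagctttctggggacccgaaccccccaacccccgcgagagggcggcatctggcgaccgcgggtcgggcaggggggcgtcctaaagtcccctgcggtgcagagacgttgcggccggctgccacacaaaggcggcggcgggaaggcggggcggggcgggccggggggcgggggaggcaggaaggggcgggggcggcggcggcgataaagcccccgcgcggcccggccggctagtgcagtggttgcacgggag

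The Serpinb9 promoter held 1 ISRE match, beginning 46 bases before the start, and no match to the other 3 motifs. An ISRE match was present in 3.44% of 32851 RefSeq promoters of the same length. Serpinb6a, at its start with coordinates chr13:34002745-34003044, held 1 ISRE match and 2 GAS matches, of which 1 overlapped the ISRE match. Serpina3g held 1 GAS match, 33 bases before the start, and 1 NF-kB match, and Serpina3f held 1 GAS match, which lies in the overlapping promoters of both of its start sites. GAS matches were present in 8.30% of all promoters, NF-kB matches in 4.51% and AP-1 matches in 7.81%. Serpinb6b, Serpinb9b and Serpine2 held no match to any of the 4. The Serpine2 promoter was 77.7% G and C with 41 CpG dinucleotides, where the median promoter had 7, and the Serpinb9 promoter had 5. A match describes letters only and was not tested as a binding site. Only RefSeq starts were searched, and these can differ from GENCODE gene ends. The GENCODE gene of Serpinb9 begins at 33003250, upstream of the promoter searched.

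The promoters of 2 pairs of near-copies were aligned to show how far they kept those letters. The Serpinb9 and Serpinb9b promoters were identical at 66.9% of 278 aligned bases, and the 10 bases of the Serpinb9 ISRE match differed at 2 positions in Serpinb9b. The Serpina3g and Serpina3f promoters were identical at 83.7% of 202 aligned bases, and the 9 bases of the GAS match differed at 1 position, which the motif leaves free. The aligned stretches are chr13:33004490-33004509 and chr13:33027359-33027378, then chr12:104236109-104236127 and chr12:104214418-104214436, all on the plus strand. Capitals mark the match in Serpinb9 and Serpina3g and the bases aligned with it in Serpinb9b, which is no match, and in Serpina3f, which is one.
Serpinb9: gctacTTTCACTTTCtctaa
Serpinb9b: gctatTTTCCCTTCCtctaa
Serpina3g: tatagTTCCCAGAAatcac
Serpina3f: tctatTTCCTAGAAatcac

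Sequence shared between near-copies limits which of these genes a read can be assigned to. Serpina3f and Serpina3g were identical at 87.4% of 744 aligned coding bases, with 1 identical run of 56 bases. The alignment used 1 annotated coding sequence per gene, of 1335 bases for Serpina3f and 744 for Serpina3g. The other 591 bases of Serpina3f therefore had no partner. Whether the 744 bases are the whole Serpina3g coding sequence was not tested. Over whole transcripts, Serpina3f and Serpina3g shared 27.3% and 28.4% of their 31-base subsequences with other genes, among them each other. With 50-base subsequences the shares were 10.6% and 15.5%. Their levels are therefore uncertain where reads were split between copies. The other 6 members shared between 1.11% (Serpine2) and 10.1% (Serpinb1a). Among the aligned bases, the 60 in which Serpina3f and Serpina3g differed most are shown, with the 20 differing bases in capitals. They lie in coding exons at chr12:104220406-104220465 and chr12:104241230-104241289 (GENCODE M21, GRCm38, plus strand).
Serpina3f: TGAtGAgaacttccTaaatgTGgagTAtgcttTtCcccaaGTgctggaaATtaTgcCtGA
Serpina3g: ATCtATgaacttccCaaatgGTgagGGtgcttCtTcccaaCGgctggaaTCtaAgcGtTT

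Library size, knockdown and cell identity were checked before the serpins. Total counts per sample ranged from 78748647 to 110803318. Levels are given as CPM, counts per 1000000 counts of a library after TMM scaling. Kdm5d had 0, 2 and 0 counts in the Female samples, and was between 49.5 and 52.2 CPM in Male, between 48.4 and 52.4 in WT and between 21.4 and 22.9 in KD, where its mean was 43.3% of WT. The 7 CD8 T cell markers (Cd8a, Cd8b1, Cd3d, Cd3e, Cd3g, Cd2 and Lck) were detected and summed to between 2133 and 2175 CPM in Female and Male, between 2541 and 2590 in WT and between 2248 and 2302 in KD. The 9 monocyte, macrophage and dendritic cell markers were low, with Siglech at 0, and most were too low to test in each comparison. Their sum differed between the groups, at 2.32 to 3.12 CPM (Female), 3.57 to 3.71 (Male), 8.99 to 10.1 (WT) and 5.21 to 6.39 (KD). The sum does not show whether each marker moved. Of the 3 tested between Male and Female, 1 was called higher in Male. Of the 4 tested between KD and WT, 2 were called lower in KD. The 6 neutrophil markers summed to at most 0.113, 0.205, 0.658 and 0.155 CPM in the same order, with S100a8, S100a9 and Elane at 0 in each sample. The 3 NK cell markers summed to 0.165 to 0.457 CPM (Female), 0.486 to 0.531 (Male), 1.504 to 1.598 (WT) and 0.673 to 1.24 (KD). For the 3 CD4 T cell markers the sums were 3.49 to 5.11, 4.93 to 6.31, 4.04 to 4.37 and 2.31 to 3.32 CPM. Sums of the 5 B cell markers were 3.84 to 3.97, 3.81 to 4.76, 5.40 to 6.49 and 4.00 to 5.23 CPM. The 4 stroma and endothelium markers summed to 43.3 to 45.3, 38.6 to 40.1, 35.4 to 37.4 and 29.0 to 31.7 CPM in that order, separating all 4 groups, almost all of it Pecam1, with Col3a1 and Cdh5 at 0. The part of these cells in the serpin differences was not tested, and in bulk RNA fewer cells of a type and less RNA per cell cannot be told apart.

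Most serpin RNA in these cells came from a handful of genes. The 8 members together held between 95.8% and 97.9% of the counts of all 68 serpin genes in each sample, and 39 of the other 60 serpins had 0 counts in all 12 samples. Summed over the 68 genes, the Female samples held 146.9 to 152.5 CPM, the Male samples 281.4 to 290.9, the WT samples 452.3 to 459.6 and the KD samples 340.2 to 347.3. The 4 groups did not overlap in this sum. Female and Male were counted in 1 table and WT and KD in another, from a separate batch, so levels are set side by side across the tables with no test.

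Levels of different genes were compared per kilobase of annotated exon, as CPM per kb. Serpina3g had the highest mean in each group. Its means for Female, Male, WT and KD were 15.5 ± 0.62, 33.6 ± 0.67, 51.1 ± 1.25 and 50.5 ± 1.18 CPM per kb (SD, n = 3). The next in Female was Serpinb6b, at 15.0 ± 0.53, which did not differ from Serpina3g beyond their spread. In WT the next was Serpinb9, at 49.9 ± 1.06, which did not differ from Serpina3g beyond the spread either. Both ties rest on the length used: per kilobase of the longest transcript the means of Serpina3g and Serpinb6b in Female were 18.1 and 15.5, and those of Serpina3g and Serpinb9 in WT were 59.7 and 50.3. In KD the next was again Serpinb9, at 21.4 ± 0.088, well below Serpina3g. Serpine2 stood at 0.772 ± 0.072 (Female) and 0.401 ± 0.031 (Male) but at 9.03 ± 0.23 (KD), where only Serpina3g and Serpinb9 were higher. Serpinb9b was lowest in each group. Serpine2 and Serpinb6a have many annotated exons outside their longest transcript, and with the length of that transcript Serpine2 was at 22.1 CPM per kb in KD, above Serpinb9.

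**Figure D1:**
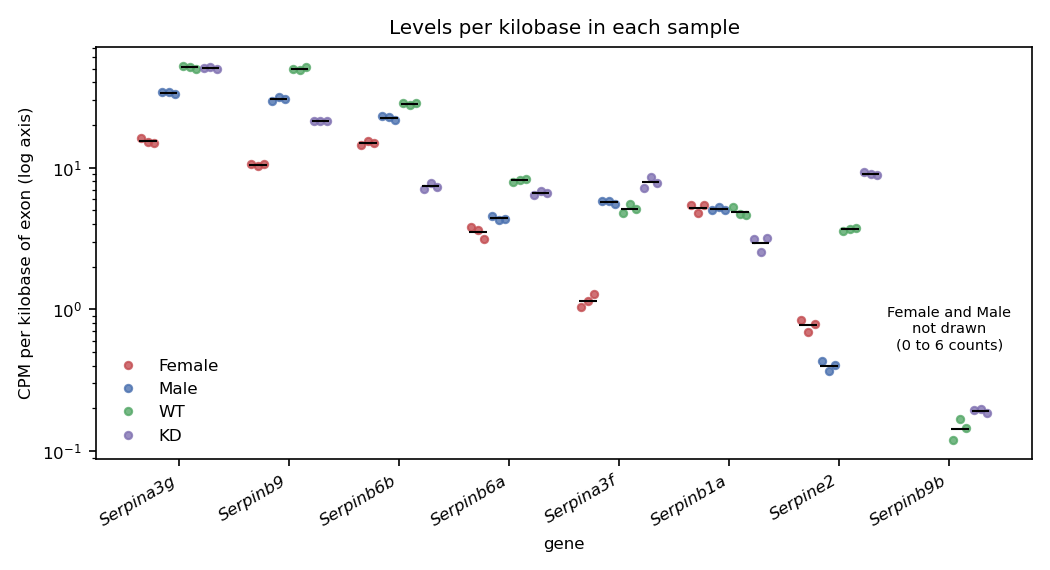
Level of each serpin gene in CPM per kilobase of annotated exon (log axis) in each sample, colored by group, with black lines at the mean of 3 samples. Serpina3g has the highest mean in each group, close to Serpinb6b in Female and to Serpinb9 in WT. Serpine2 spans from 0.401 in Male to 9.03 in KD, and Serpinb9b in Female and Male (0 to 6 counts) is not drawn.

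Sex differences in the serpins were tested between Male and Female, a comparison that the choice of the genes did not use, although the Serpinb9 difference in it was already known. Of the 8 members, 5 were higher in Male, 1 was lower, 1 did not pass the test and 1 was too low to test, by edgeR's quasi-likelihood test at an adjusted p under 0.05. Across all 20208 genes tested, 23.5% were called higher in Male and 26.3% lower, 49.8% in all. In 6 of the 8 genes the Male and Female samples did not overlap, where this held for 58.3% of all genes tested (28.6% higher and 29.7% lower in Male). The median log2 fold change of the 7 tested members was 0.59, and that of all genes tested was 0.011.

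Serpinb9 (ENSMUSG00000045827, chr13:33003250-33017957), the granzyme B inhibitor, was at 37.0, 35.8 and 36.8 CPM in the Female samples and at 103.9, 109.9 and 106.2 CPM in the Male samples. Each Male sample was thus far above each Female sample. The fold was 2.92, at 1.55 ± 0.029 (log2 fold change ± SE, adjusted p 8.30e-11 by edgeR). Serpinb9 made up between 24.2% and 25.1% of all serpin counts in Female and between 36.2% and 37.8% in Male.

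Serpinb6b (ENSMUSG00000042842, chr13:32965209-32979067) is a mouse inhibitor of granzyme A. Its levels were 32.7, 35.1 and 34.0 CPM in Female and 52.4, 51.7 and 48.8 CPM in Male, so that the groups did not overlap. It was higher in Male at 0.59 ± 0.040 (log2 fold change ± SE, adjusted p 7.38e-07 by edgeR). Its relative Serpinb6a (ENSMUSG00000060147, chr13:33917918-34002794), whose human counterpart inhibits cathepsin G, was at 20.5, 19.6 and 17.0 CPM in Female and 24.7, 23.0 and 23.6 CPM in Male. The groups again did not overlap, but the difference was small, at 0.32 ± 0.067 (log2 fold change ± SE, adjusted p 0.0024 by edgeR). The exons of Serpinb6a overlap those of Nqo2, Ripk1 and 1110046J04Rik on the other strand over 14.1%, 4.46% and 10.8% of its exon bases. The library kit keeps strand, but whether reads were counted by strand was not given in the sources used here, so some of its counts could belong to those genes.

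Serpinb1a (ENSMUSG00000044734, chr13:32842092-32851185), an inhibitor of neutrophil elastase and related proteases, was at 12.6, 11.1 and 12.5 CPM in Female and 11.6, 12.1 and 11.5 CPM in Male. The groups overlapped. On the log2 scale the difference was -0.037 ± 0.069 (SE), which did not pass the test (adjusted p 0.696 by edgeR), and its 95% interval ran from -0.17 to 0.098. Serpinb9b (ENSMUSG00000021403, chr13:33027416-33041884) had 3, 6 and 0 counts in Female and 0, 0 and 5 counts in Male. These counts were near the floor of 3 counts and gave no fold.

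Both clade A members rose in Male. Serpina3f (ENSMUSG00000066363, chr12:104214544-104221129) was at 2.38, 2.62 and 2.93 CPM in Female and 13.3, 13.4 and 12.7 CPM in Male. The fold was 4.97, at 2.31 ± 0.094 (log2 fold change ± SE, adjusted p 1.63e-08 by edgeR), the largest among the members. Serpina3f shared 15.3% of its 31-base subsequences with Serpina3g, so this fold is uncertain where reads were split between the copies. Serpina3g (ENSMUSG00000041481, chr12:104236245-104241939), also called Spi2A, inhibits cysteine cathepsins that escape from lysosomes and is known for supporting survival of memory CD8 T cells. Its levels were 34.0, 32.1 and 31.6 CPM in Female and 71.7, 71.5 and 69.2 CPM in Male. Both genes had Male samples above all Female samples. For Serpina3g the fold was 2.17, or 1.12 ± 0.036 (SE) on the log2 scale (adjusted p 2.94e-09 by edgeR).

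Serpine2 (ENSMUSG00000026249, chr1:79794197-79861180), or protease nexin-1, is a secreted inhibitor of thrombin, urokinase and plasmin. It was the member that fell in Male, from 6.92, 5.74 and 6.54 CPM in the Female samples to 3.56, 3.06 and 3.36 CPM in the Male samples. The groups did not overlap. On the log2 scale the change was -0.94 ± 0.11 (SE), with an adjusted p of 5.49e-05 by edgeR.

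**Figure D2:**
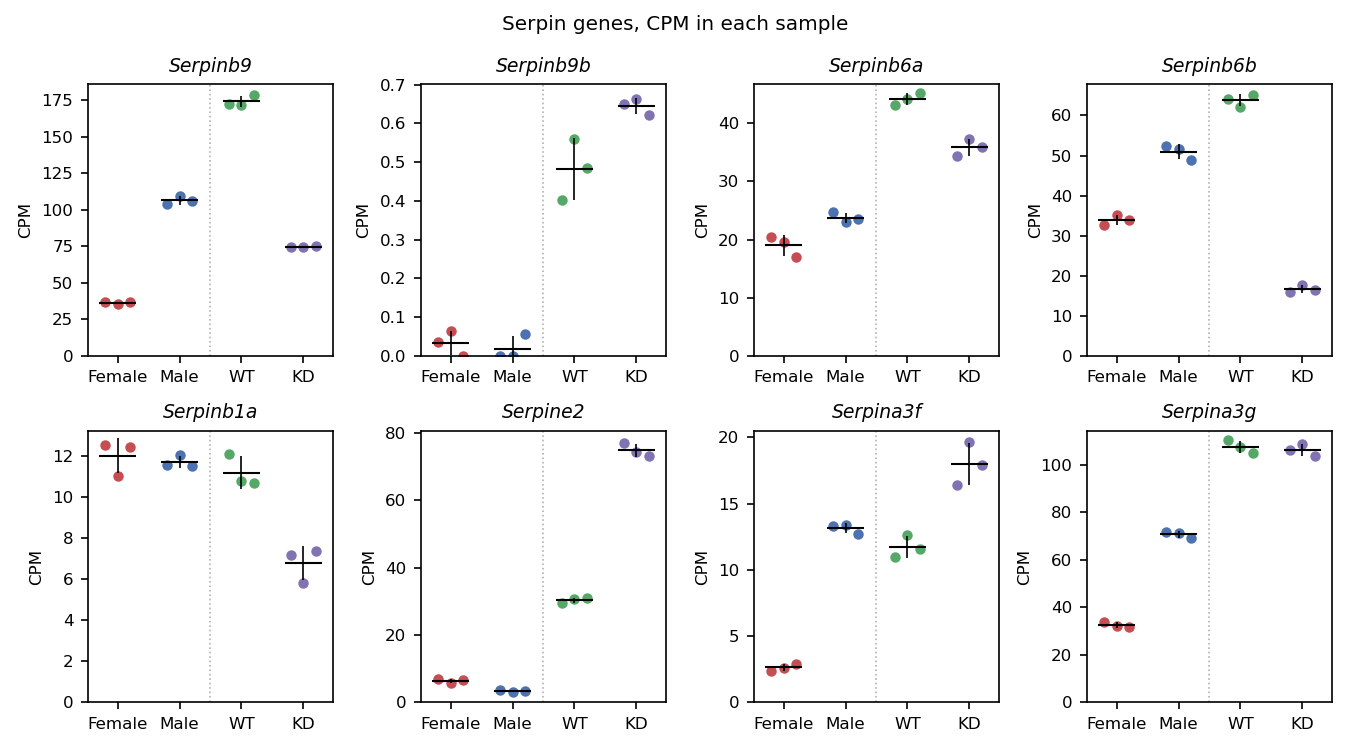
CPM of the 8 serpin genes in each sample, with a linear axis from 0 for each gene, black lines at the mean and bars of 1 SD (n = 3), and a dotted line between the separately counted tables. Serpinb9 and Serpinb6b are higher in Male than Female and lower in KD than WT, Serpine2 shows the opposite, and the WT and KD samples of Serpina3g overlap.

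The knockdown comparison is a description, since the genes were chosen from it. WT cells had no Cas9 and no sample had Cas9 without the Kdm5d guide, so effects of Cas9 and of lower Kdm5d cannot be told apart. The KD and WT samples did not overlap for 7 of the 8 genes, and for 46.8% of all 20413 genes tested (23.2% higher and 23.6% lower in KD). No p-values are given for the members here.

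Serpinb9 was at 172.7, 172.1 and 178.8 CPM in the WT samples and at 74.5, 74.8 and 75.1 CPM in the KD samples, so that KD held 42.9% of WT. The log2 fold change was -1.22 (SE 0.025). Its share of all serpin counts was between 38.0% and 38.9% in WT and between 21.5% and 22.1% in KD. Serpinb9b, the near-copy, was at 0.402, 0.560 and 0.484 CPM in WT and 0.650, 0.663 and 0.621 CPM in KD. Its difference ran the other way, with a log2 fold change of 0.42, but the SE was 0.24 and the level was low, at 44 to 72 counts per sample.

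Serpinb6b differed most among the members. It was at 64.2, 62.1 and 65.0 CPM in WT and at 15.9, 17.8 and 16.4 CPM in KD, which was 26.2% of WT. The log2 fold change was -1.93 (SE 0.048). Serpinb6a was at 43.1, 44.2 and 45.2 CPM in WT and 34.4, 37.3 and 35.8 CPM in KD, a log2 fold change of -0.30 ± 0.041 (SE). In both genes each KD sample was below each WT sample. Serpinb1a was at 12.1, 10.8 and 10.7 CPM in WT and 7.18, 5.84 and 7.37 CPM in KD, also without overlap, a log2 fold change of -0.72 ± 0.098 (SE).

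Serpine2 was at 29.4, 30.7 and 30.9 CPM in WT and at 76.9, 74.4 and 73.2 CPM in KD. The KD level was 2.47-fold that of WT, a log2 fold change of 1.30 ± 0.036 (SE), and each KD sample was above each WT sample. Serpina3f was at 10.9, 12.7 and 11.6 CPM in WT and 16.4, 19.6 and 17.9 CPM in KD, a log2 fold change of 0.62 ± 0.077 (SE). Serpina3g was at 110.3, 107.5 and 105.1 CPM in WT and 106.1, 108.9 and 103.9 CPM in KD. It was the member with overlapping groups, and its log2 fold change was -0.018 (SE 0.029, interval -0.075 to 0.040).

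**Figure D3:**
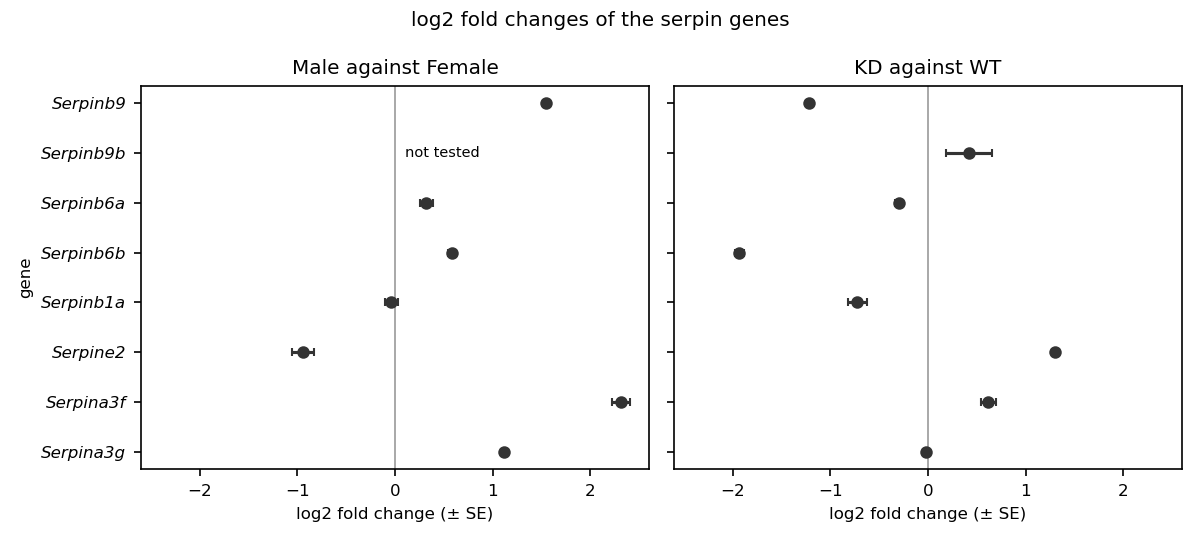
Log2 fold change of each serpin gene with its SE, Male against Female on the left and KD against WT on the right. Serpinb9, Serpinb6b, Serpinb6a and Serpine2 lie on opposite sides of 0 in the panels, Serpina3f lies above 0 in both, and Serpina3g is at 1.12 on the left and -0.018 on the right.

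The comparisons share no samples, and their values can be read side by side for each gene. Serpinb9 (1.55 and -1.22), Serpinb6b (0.59 and -1.93) and Serpinb6a (0.32 and -0.30) had a positive log2 fold change in Male against Female and a negative one in KD against WT. Serpine2 (-0.94 and 1.30) had the reverse. Serpina3f (2.31 and 0.62) was positive in both. Serpinb1a was at -0.037 and -0.72, and Serpina3g at 1.12 and -0.018.

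Male and WT cells were both male and had no Cas9, with Kdm5d at 50.9 CPM in each, but came from separate batches with and without electroporation. Male cells held 3.33 ± 0.25 CPM of Serpine2 RNA and WT cells 30.3 ± 0.78 (SD, n = 3). Serpinb9 was at 106.7 ± 3.00 (SD) and 174.5 ± 3.72, Serpina3g at 70.8 ± 1.41 and 107.6 ± 2.63, and Serpinb6a at 23.8 ± 0.83 and 44.2 ± 1.06. Serpinb6b was at 50.9 ± 1.92 and 63.8 ± 1.49. Serpinb1a was at 11.7 ± 0.30 and 11.2 ± 0.79, and Serpina3f at 13.2 ± 0.36 and 11.7 ± 0.86. Serpinb9b had 0 to 5 counts in the Male samples and 44 to 54 in the WT samples. TMM scaling was done within each table, so the Male and WT levels were not put on a common scale. Batch and electroporation cannot be told apart here, and whether the electroporated batch met beads was not given in the sources used here.

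Of the 8 genes, 5 lie in a cluster of clade B serpins on chromosome 13, which made it possible to look at their neighbors (chosen after values were seen). Serpinb6b, Serpinb9 and Serpinb9b follow each other within the same stretch of the cluster, 123.1, 161.2 and 185.3 kb from the start of Serpinb1a. Serpinb9 and Serpinb9b, side by side and 86.0% identical in coding sequence, had 9391 to 10172 and 0 to 5 counts in the Male samples. Serpinb9c, Serpinb9e, Serpinb9g, Serpinb6c, Serpinb6d and Serpinb6e had 0 counts in all samples. The long noncoding RNA gene Gm6093, inside the cluster, rose in Male (2.2 ± 0.17 as log2 fold change ± SE, adjusted p 2.00e-06 by edgeR), from 0.692 to 3.19 CPM, and was at 7.38 CPM in WT and 2.50 in KD. Nqo2, which lies within the span of Serpinb6a, had log2 fold changes of -0.31 and 0.15 in the respective comparisons. Ripk1, which overlaps the edge of that span, had -0.16 and 0.036. Beside the cluster, Wrnip1 (0.38 and -0.21) and Tubb2a (0.38 and -0.37) had a positive and then a negative value as Serpinb9 did. Neither is a serpin. Bphl, also beside the cluster, had -0.89 and -0.15.

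**Figure D4:**
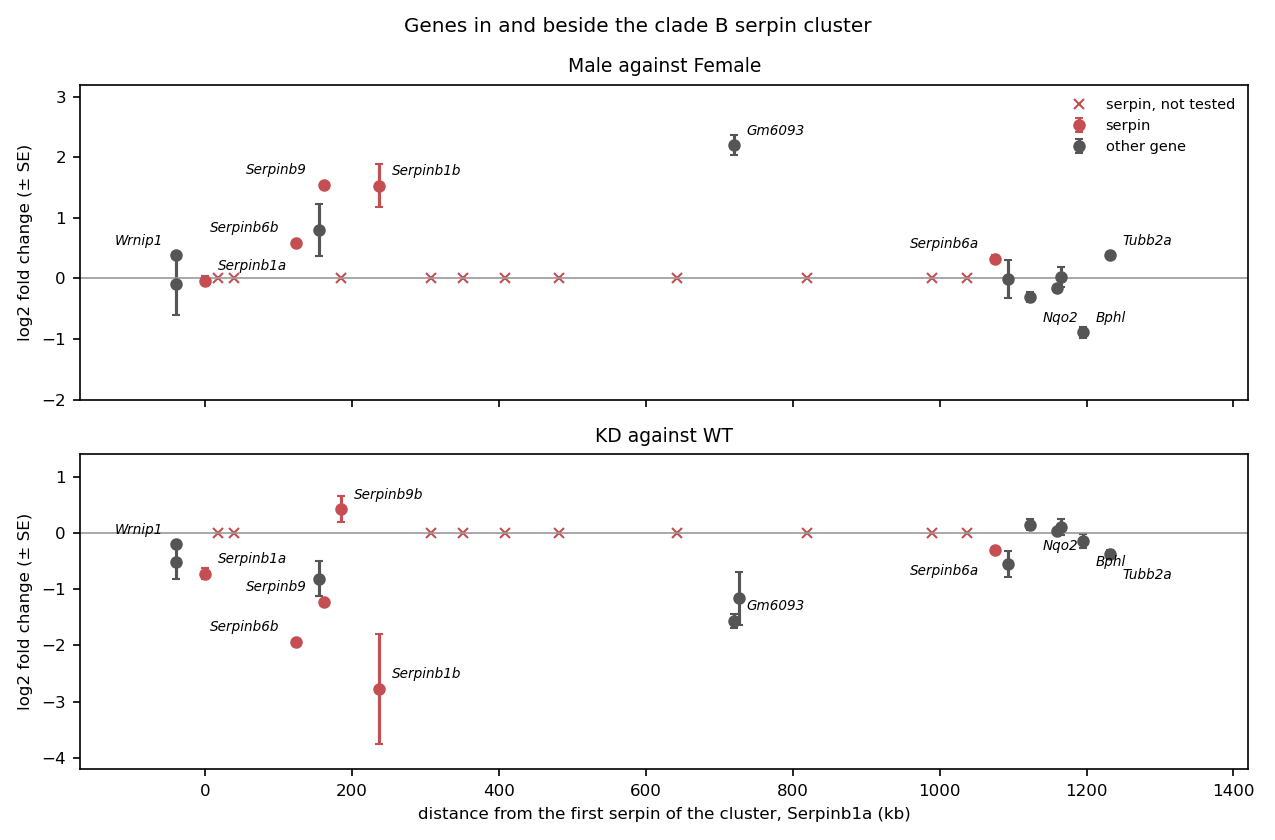
Log2 fold change (± SE) of genes in and within 100 kb of the clade B serpin cluster against distance from Serpinb1a in kb, with serpins in red, other genes in gray and crosses at 0 for serpins too low to test. Serpinb6b, Serpinb9 and Gm6093 lie above 0 in Male against Female and below 0 in KD against WT, while Serpinb1b, at 0 to 52 counts per sample, has wide bars.

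Other serpins were rarely detected. Of the other 60, 10 could be tested between Male and Female, where 3 were higher and 2 lower in Male. Of all genes tested there, 23.5% were called higher and 26.3% lower, 49.8% in all. Between KD and WT 11 could be tested, where 2 were higher and 1 lower in KD. Of all genes tested in that comparison, 16.8% were called higher and 18.4% lower, 35.1% in all. Serpini1, or neuroserpin, an inhibitor of tissue plasminogen activator, and Serpinh1, the collagen chaperone HSP47, were among the other serpins tested. Serpini1 averaged 2.78, 2.71, 6.92 and 4.04 CPM in Female, Male, WT and KD. It did not pass the test between Male and Female (log2 fold change -0.036, edgeR adjusted p 0.901) and was lower in KD (-0.78 ± 0.13 SE, adjusted p 0.000781 by edgeR). Serpinh1 fell from 0.869 CPM in Female to 0.123 in Male (-2.80 ± 0.31 as log2 fold change ± SE, adjusted p 3.12e-05 by edgeR). Serpina3b had 22, 15 and 17 counts in Female and 0 in the other 9 samples.

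The proteases that serpins meet in a cytotoxic T cell were examined next, as lists not picked by how they moved here, although granzyme results of these data were already known. Of 13 granzyme and granule genes 9 could be tested for sex, of which 7 rose and 1 fell in Male, where 23.5% and 26.3% of all genes tested did. Of the same 13, all tested between KD and WT, 7 were lower and 1 higher in KD, where 18.4% and 16.8% of all genes were. Granzyme B (Gzmb), the target of Serpinb9, rose from 1042 CPM in Female to 2407 CPM in Male (1.21 ± 0.018 as log2 fold change ± SE, adjusted p 1.86e-11 by edgeR) and was at 4971 CPM in WT and 2703 in KD. Perforin (Prf1) was at 4.32, 20.3, 64.9 and 28.0 CPM in Female, Male, WT and KD. Granzyme A (Gzma), the target of Serpinb6b, was at 5.59, 52.3, 648.8 and 35.7 CPM in the same order. As RNA per kilobase, Gzmb stood at 70.1, 71.0 and 67.2 times Serpinb9 in the Female samples and at 55.9, 54.0 and 54.8 times in the Male samples. The ratio was thus lower in each Male sample (log2 difference -0.34, exact two-sided permutation p 0.1, the smallest that 3 against 3 samples allow). It was 71.1, 69.4 and 67.5 in WT and 86.8, 90.0 and 87.0 in KD, higher in each KD sample. On the log2 scale Serpinb9 differed by 1.55 and -1.22 in the respective comparisons, and Gzmb by 1.21 and -0.88.

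**Figure D5:**
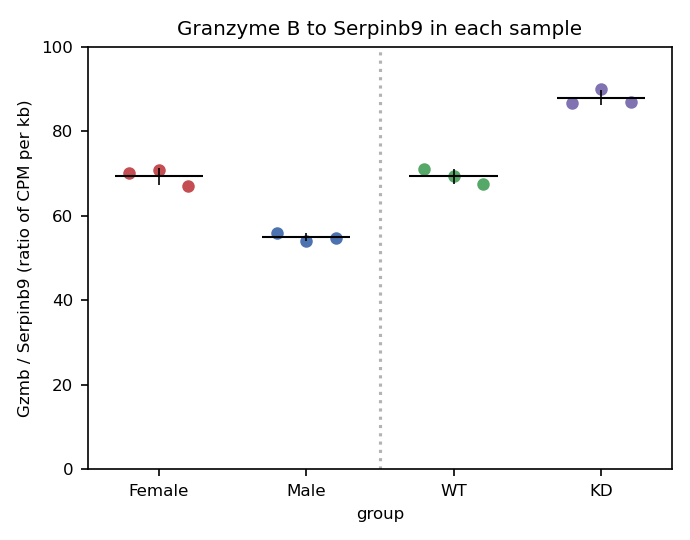
Ratio of Gzmb to Serpinb9 level (CPM per kilobase of exon) in each sample, with black lines at the mean and bars of 1 SD (n = 3). Male samples (54.0 to 55.9) lie below Female samples (67.2 to 71.0), and KD samples (86.8 to 90.0) lie above WT samples (67.5 to 71.1).

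For Gzma and Serpinb6b the ratio of levels per kilobase averaged 0.371 ± 0.040, 2.31 ± 0.053, 22.9 ± 0.63 and 4.81 ± 0.17 in Female, Male, WT and KD (SD, n = 3), so that the protease differed by far more than its inhibitor. Urokinase (Plau), a target of Serpine2, was low, averaging 0.628, 0.482, 0.757 and 0.638 CPM in Female, Male, WT and KD, and did not pass the test between Male and Female (log2 fold change -0.38, edgeR adjusted p 0.328). Of the 10 listed genes of the plasminogen and thrombin system, 7 were tested in each comparison. In Male 3 rose and 1 fell, and in KD 3 were lower, with 49.8% and 35.1% of all genes called in the respective comparisons. The 3 were the protease-activated receptors F2r, F2rl1 and F2rl3 in both cases. The thrombin receptor F2r averaged 147.6, 236.3, 437.1 and 304.4 CPM in Female, Male, WT and KD.

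Cathepsins are lysosomal proteases, of which Serpina3g can inhibit cysteine types such as cathepsins B and L. Calls in the next 3 lists stand beside 49.8% of all genes called in the sex comparison and 35.1% in the knockdown comparison. Of 14 listed cathepsin and legumain genes, 12 were tested, with 7 higher and 3 lower in Male, and 4 higher and 4 lower in KD. Cathepsin B (Ctsb) rose from 82.2 to 96.1 CPM in Male (0.22 ± 0.033 as log2 fold change ± SE, adjusted p 0.0002 by edgeR), while cathepsin L (Ctsl) fell from 11.5 to 7.23 CPM (-0.67 ± 0.080 as log2 fold change ± SE, adjusted p 4.80e-05 by edgeR). Among 16 cystatins and other protease inhibitors, 8 were tested, with 3 lower in Male and 3 higher in KD, and the other 5 of each comparison did not pass. Timp2, an inhibitor of metalloproteases, fell from 8.70 to 2.50 CPM in Male (-1.80 ± 0.12 as log2 fold change ± SE, adjusted p 7.05e-07 by edgeR) and was at 1.92 CPM in WT and 3.41 in KD. Cst7, a cystatin of cytotoxic cells, averaged 37.2 and 36.4 CPM in Female and Male (adjusted p 0.534 by edgeR), and was called higher in KD, at 48.7 CPM against 43.9 in WT (adjusted p 0.0155 by edgeR). Of 8 caspases 7 were tested, with 3 higher and 1 lower in Male and 1 higher and 4 lower in KD. Casp8, which starts apoptosis downstream of death receptors, rose from 95.6 to 150.6 CPM in Male (adjusted p 1.68e-08 by edgeR).

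Genes with the most similar pattern were ranked by Pearson correlation of log2 CPM over the 12 samples, after subtraction of each table's mean, among 11868 genes that averaged a log2 CPM of 1 or more in both tables. Since the points share 4 groups and the same libraries, the coefficients mostly describe the group differences. Serpinb9 was followed most closely by Phf11b (r = 0.999), P2ry14 and Ddx58. Serpine2 was followed by Zmat3 (r = 0.991), Nfix and Cdca7l, Serpinb6b by Prex1 (r = 0.998), Vim and Bcl2l1, and Serpina3g by Stoml2 (r = 0.998), Psme1 and Aldoa.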

How the data were processed

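RNA was sequenced from 12 samples, and each deposited table (1 per batch) holds the authors' unnormalized whole-number counts by gene. The submitters' processing notes name bcl2fastq 2.20.0, HISAT2, StringTie, DESeq2 and the build mm10, with no roles. Counts made with StringTie would be estimates, and the use of strand was not given in the sources used here. Symbols, exon lengths and positions came from GENCODE M21 (GRCm38), which matched 55227 of 55487 identifiers. Each table was fitted alone with edgeR 4.0.16 in R 4.3.3 (TMM, filterByExpr, quasi-likelihood test, Benjamini-Hochberg adjustment over all genes tested). SE was the absolute log2 fold change over the square root of F, and 95% intervals used the normal quantile. Scripts were tested on simulated data. Groups came from sample titles. Members and lists were chosen with earlier results of these data known. All 8 members, other serpins at 1 CPM or more and listed related genes were eligible to be named; Serpinh1, Serpina3b, Serpinb1b, other silent serpins and cluster neighbors were added after values were seen. One other serpin at 1 CPM or more is not reported here. Alternatives used DESeq2 1.42.0 and limma 3.58.1.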

Additional observations from a re-analysis of the deposited data

How the results depend on the processing

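In 10 alternative settings and 6 fits without 1 sample, the 5 members higher and the 1 lower in Male kept direction and passed the threshold, and Serpinb1a did not pass it (adjusted p 0.294 to 0.924). Without 1 sample, log2 fold changes in Male against Female were 1.52 to 1.56 for Serpinb9 and 0.25 to 0.37 for Serpinb6a. In KD against WT the sign of Serpina3g was not settled, at -0.037 to 0.012 over all runs. Without 1 replicate, calls numbered 9190 to 9399 between Male and Female and 6073 to 6685 between KD and WT, and Kdm5d was at -1.25 to -1.19. With the replicate number as a block, 9740 and 6688 genes were called, with 6 members among them for Male against Female, and Kdm5d was at -1.21. Deviations of same-numbered samples were not correlated (mean r -0.011 and -0.012), so the numbers show no pairing. Serpinb9b could be tested between Male and Female when no low-count filter was used (log2 fold change -0.79, adjusted p 0.782). Depth limits Serpinb9b and the serpins under 1 CPM, and the floor of 3 counts covers counting error only.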
